A study of Mus musculus with 6 samples.

Results

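Genes of necroptosis and of caspase-driven cell death, 8 in number, were followed in mouse peritoneal macrophages: Zbp1, Ripk1, Ripk3, Mlkl, Casp6, Casp8, Casp9 and Fadd. They were chosen by name with earlier results of these data known, as were the related gene lists below. Their shares beside those of all genes are therefore descriptive and no unbiased measure of enrichment. A gene was measured where the platform annotation named a probe with that symbol alone. This held for 7 of the 8 genes, out of 19935 genes tested, and each of the 7 was read by 1 probe. No probe carried the symbol Ripk1, so that kinase was not analysed here. Macrophages of C57BL/6 mice, phagocytes of the abdominal cavity, were given poly I:C at 2 ug/mL for 24 h, PAM at 1 ug/mL for 24 h, or no ligand. Poly I:C, an artificial double-stranded RNA, is a ligand of TLR3, and PAM is a lipopeptide ligand of TLR2; the labels of the 2 PAM samples spell its name differently. Each of the 3 groups held 2 arrays (6 in all), and no culture time is stated for the controls. Nothing in the labels states that the arrays of a group stem from different mice or dishes, and the p-values therefore cover a spread between arrays that may be technical only.

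Necroptosis is a lytic form of cell death. ZBP1, a sensor of Z-form nucleic acids, and RIPK1 bind the kinase RIPK3 through a shared interaction motif, and RIPK3 then phosphorylates MLKL, which permeabilizes the plasma membrane. TLR3 reaches the same kinase through its adaptor TRIF. Caspase-8, recruited by the adaptor FADD, starts apoptosis and also cleaves the RIP kinases, which holds necroptosis back. Caspase-9 is the initiator of the mitochondrial pathway of apoptosis, and caspase-6 is an effector caspase that in mouse macrophages also takes part in ZBP1-driven death.

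The deposited values are on a log scale, taken here as log2, with each probe's median over the 6 arrays subtracted. They therefore show how a gene differed between arrays but hold no signal level, and no gene's level can be set against another's. The numeric steps of the values still hold a trace of the level before centring. For 6 of the 7 probes the steps on every array were those of values at 8 or more. This held for 27.7% of all probes and 1.47% of olfactory receptor probes. A lower value can match that step by chance, so a match does not prove a level of 8 or more. Zbp1 was the exception, with the finer step of a value below 8 on control array 1. Its control array 2 matched the coarser step but was nearly equal in value (-2.72 against -2.73). That array is therefore not shown to have been at 8 or more. Of 10 macrophage marker probes 7 matched the step of 8 or more throughout. So did 4 of 8 mesothelial and fibroblast marker probes, 1 of 7 for T and NK cells and 1 of 7 for neutrophils. None of the B cell, mast cell and dendritic cell probes did. Of 37 measured markers of those other cell types, poly I:C raised 3 and lowered 3 (8.11% each way), by limma at adjusted p under 0.05. PAM raised 4 and lowered 2 (10.8% and 5.41%). Of all genes 12.1% rose and 18.2% fell with poly I:C, and 11.0% rose and 14.0% fell with PAM. With each ligand 2 of 5 B cell markers rose and 0 fell. Poly I:C lowered 2 of 8 mesothelial and fibroblast markers and raised 0. Of 10 macrophage markers 4 rose and 3 fell with poly I:C, and 3 rose and 4 fell with PAM. Whether other cells had a part in the results below was not tested. In such bulk samples fewer cells of a type and less RNA per cell cannot be told apart.

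With poly I:C, all 7 measured genes passed the test against control, 4 of them higher and 3 lower, where 30.4% of all genes passed, 12.1% higher and 18.2% lower. Zbp1 rose 26.7-fold, Mlkl 7.74-fold, Casp8 1.80-fold and Fadd 1.29-fold, while Ripk3, Casp9 and Casp6 fell by modest amounts. With PAM, 5 of the 7 passed against a background of 25.0% (11.0% higher and 14.0% lower): Zbp1 and Mlkl rose 6.61-fold and 2.15-fold, and Ripk3, Casp9 and Casp6 fell. The same 2 genes were thus higher with both ligands (4.99% of all genes were) and the same 3 lower with both (8.47% of all genes were). Each comparison used the same control arrays, so these counts are not independent of each other. The median difference of the 7 genes was 0.37 with poly I:C and -0.20 with PAM on the log2 scale, where the medians of all genes lay within 0.01 of 0. Changes of at least 2-fold were seen for Zbp1 and Mlkl alone, 2 of the 7, with poly I:C (2.77% of all genes rose that far) and with PAM (2.27%), and for Zbp1, Mlkl and Casp8, 3 of the 7, in the direct comparison, where poly I:C exceeded PAM (2.59% of all genes). Calls throughout are from limma's moderated test, with Benjamini-Hochberg adjustment over all 19935 genes and a threshold of 0.05.

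**Figure D1:**
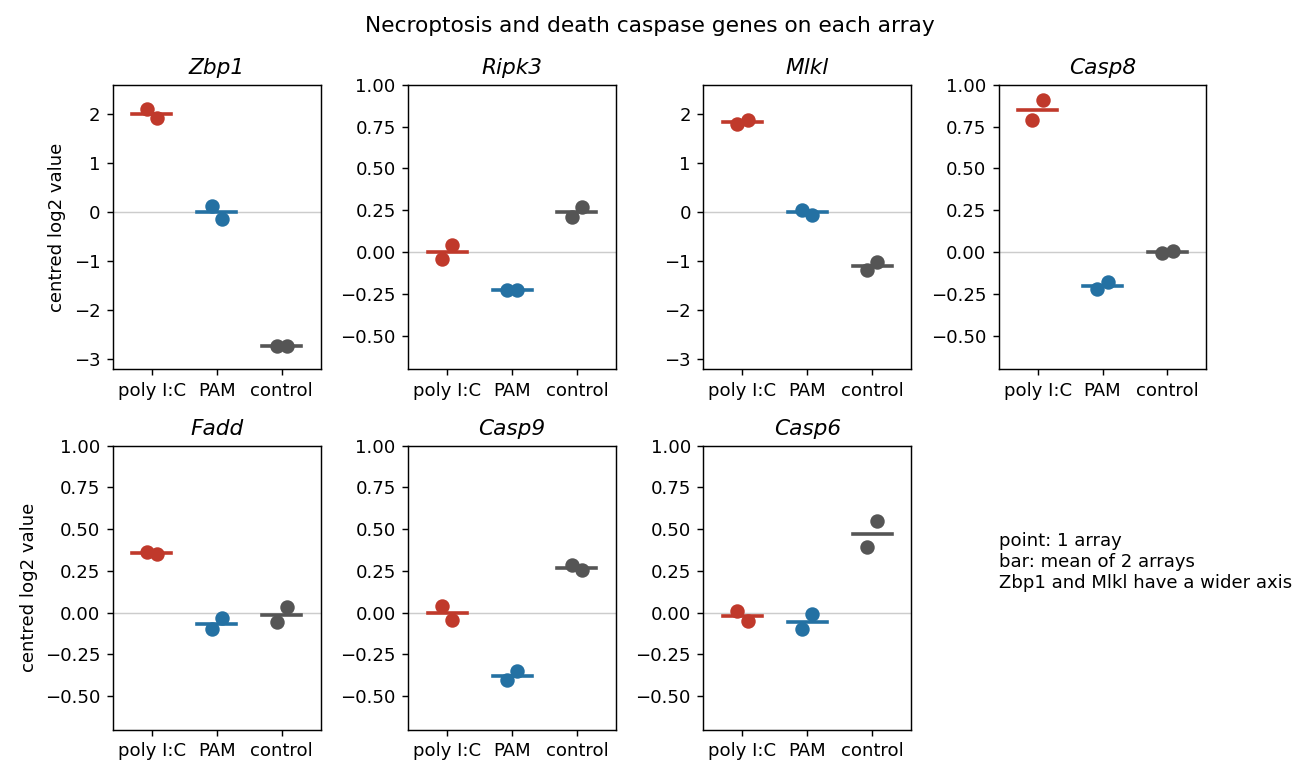
Centred log2 value of each measured gene (vertical axis) on each array, by group (horizontal axis: poly I:C, PAM, control); points are arrays, bars are means of 2 arrays, and Zbp1 and Mlkl are drawn on a wider axis than the other genes. Zbp1 and Mlkl are highest on poly I:C arrays, intermediate on PAM arrays and lowest on control arrays, while Ripk3, Casp9 and Casp6 are highest on control arrays.

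Zbp1 (gene 58203; chromosome 2, 173206612 to 173218959, GRCm38.p6) encodes the nucleic acid sensor and is known as an interferon-induced gene. Its centred log2 values were 2.10 and 1.93 on the poly I:C arrays, 0.13 and -0.13 on the PAM arrays, and -2.73 and -2.72 on the control arrays. The 3 groups were fully separated, with poly I:C highest and control lowest. The difference from control was 4.74 ± 0.10 with poly I:C (log2 ± SE, n = 2 arrays per group; adjusted p = 2.84e-09) and 2.73 ± 0.10 with PAM (adjusted p = 9.97e-08). Poly I:C exceeded PAM by 2.01 ± 0.10, a 4.03-fold difference (adjusted p = 4.87e-07). Ordered by rise over control, Zbp1 stood at place 34 with poly I:C and at place 93 with PAM among the 19935 genes.

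Mlkl (gene 74568; chromosome 8, 111311255 to 111338479) encodes the protein that permeabilizes the membrane at the end of the pathway. It showed the same order of groups as Zbp1 with smaller steps. Its values were 1.80 and 1.89 with poly I:C, 0.05 and -0.05 with PAM, and -1.19 and -1.02 in controls, again without overlap. It was higher than control by 2.95 ± 0.08 with poly I:C (adjusted p = 1.37e-08; place 118 of all genes) and by 1.10 ± 0.08 with PAM (adjusted p = 8.98e-06; place 407). The direct difference between poly I:C and PAM was 1.85 ± 0.08, or 3.60-fold (adjusted p = 2.58e-07).

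Ripk3 (gene 56532; chromosome 14, 55784995 to 55788857), the kinase between the sensor and Mlkl, moved the other way. Its values were -0.04 and 0.04 with poly I:C, -0.23 and -0.23 with PAM, and 0.21 and 0.27 in controls. All 4 treated arrays lay below both control arrays, and the PAM arrays were lowest. Ripk3 fell by 0.24 with poly I:C (SE 0.07, to 84.6% of control; adjusted p = 0.0218) and by 0.47 with PAM (SE 0.07, to 72.2% of control; adjusted p = 0.000688). Poly I:C stood above PAM by 0.23 ± 0.07 (adjusted p = 0.0298). The poly I:C call against control was lost without poly I:C replicate 1 (-0.20, adjusted p = 0.133) and without control replicate 2 (-0.21, adjusted p = 0.0888), and the call between the ligands was lost when any of their 4 arrays was left out (adjusted p from 0.0571 to 0.173). The PAM call was kept in every fit that left out 1 array. Such a fit leaves 1 array in a group, which is assumed to vary like the other groups.

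Casp8 (gene 12370; chromosome 1, 58795233 to 58847503) had the widest gap between a positive difference with poly I:C and a negative one with PAM. Its values were 0.79 and 0.91 with poly I:C, -0.22 and -0.18 with PAM, and -0.01 and 0.01 in controls. Poly I:C arrays were highest and PAM arrays lowest, with controls between them. The rise with poly I:C was 0.85 ± 0.07 (adjusted p = 1.58e-05). The difference with PAM was -0.20 ± 0.07, with a 95% interval from -0.36 to -0.05 for this gene alone, and it did not pass after adjustment over all genes (limma adjusted p = 0.0633). Between the ligands Casp8 differed by 1.05 ± 0.07, which is 2.08-fold higher with poly I:C (adjusted p = 3.6e-06).

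Fadd (gene 14082; chromosome 7, 144578323 to 144582441), which encodes the adaptor that brings caspase-8 to death receptors, rose with poly I:C as Casp8 did, by less. Its values were 0.36 and 0.35 with poly I:C, -0.10 and -0.03 with PAM, and -0.06 and 0.03 in controls. The PAM arrays overlapped the controls, and the poly I:C arrays lay above both. The difference from control was 0.37 ± 0.07 with poly I:C (adjusted p = 0.00251) and -0.05 ± 0.07 with PAM (95% interval -0.21 to 0.10; adjusted p = 0.671). Poly I:C exceeded PAM by 0.42 ± 0.07 (adjusted p = 0.00114).

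Casp9 (gene 12371; chromosome 4, 141793612 to 141815978) fell with both ligands. Its values were 0.04 and -0.04 with poly I:C, -0.40 and -0.35 with PAM, and 0.28 and 0.26 in controls. The 3 groups did not overlap, and PAM was lowest. Relative to control Casp9 fell by 0.27 with poly I:C (SE 0.07; adjusted p = 0.0131) and by 0.65 with PAM, to 63.9% of control (SE 0.07; adjusted p = 9.16e-05), the lowest percentage among the 7 genes in either ligand. The ligands differed by 0.38 ± 0.07, poly I:C being higher (adjusted p = 0.00217). Without poly I:C replicate 2 the poly I:C call against control was lost (-0.23, adjusted p = 0.0991).

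Casp6 (gene 12368; chromosome 3, 129901415 to 129914112) fell with both ligands by similar amounts. Its values were 0.01 and -0.05 with poly I:C, -0.10 and -0.01 with PAM, and 0.39 and 0.55 in controls. Both treated groups lay below the controls and overlapped each other. The gene fell by 0.49 with poly I:C (SE 0.08, to 71.1% of control; adjusted p = 0.00101) and by 0.53 with PAM (SE 0.08, to 69.4% of control; adjusted p = 0.000845). Casp6 was the member that did not pass between the ligands: the difference was 0.03 ± 0.08, with a 95% interval from -0.14 to 0.21 (adjusted p = 0.822).

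Set directly against PAM, poly I:C gave higher values for 6 of the 7 genes and lower values for none (limma), where 28.7% of all genes passed, 12.9% higher with poly I:C and 15.8% lower. Doses differed between the ligands. The count joins different patterns. For Zbp1, Mlkl, Casp8 and Fadd the poly I:C arrays lay above the controls, whereas for Ripk3 and Casp9 both ligands lay below control and PAM lay lower. The series asked for genes raised through TLR3 and lowered through TLR2. Of the 7 genes 0 met both calls (limma), against 270 genes or 1.35% of all genes. At an unadjusted p under 0.05 in both comparisons 1 did, Casp8, against 2.07% of all genes. That looser rule was used only here and was not the planned threshold.

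**Figure D2:**
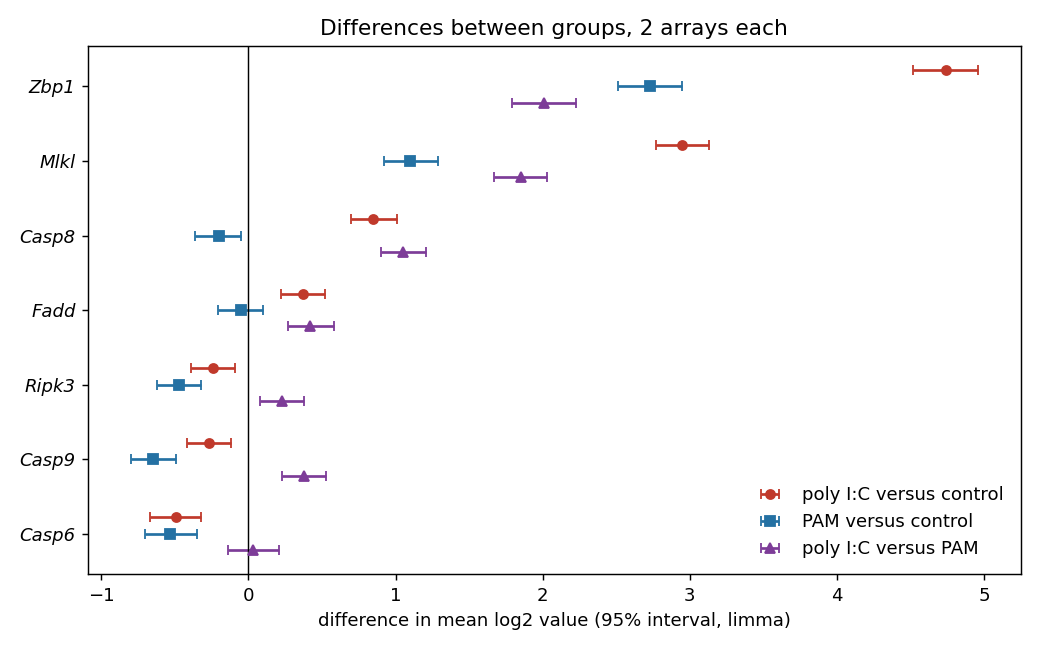
Difference in mean log2 value (horizontal axis) for each measured gene (rows), with 95% intervals from limma for poly I:C against control, PAM against control and poly I:C against PAM. Zbp1 and Mlkl extend far to the right in all 3 comparisons, Casp8 lies at 0.85 with poly I:C and -0.20 with PAM, and the Casp6 interval between the ligands spans 0.

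The genes with patterns most like each member were found among all genes tested by the Euclidean distance between their values over the 6 arrays, each gene centred on its mean. Nearest to Zbp1 were Cd40, Gbp3 and AA467197, at distances of 0.39, 0.53 and 0.54 log2 units. Nearest to Mlkl were Oasl2, Ube2l6 and Ifih1 (0.18, 0.20 and 0.21); Ifih1 encodes the RNA sensor MDA5, and it differed from control by 3.05 with poly I:C and 1.04 with PAM. Casp8 was closest to Nr1h3, Mrpl1 and Atg13 (0.11 to 0.12), and Fadd to Ccdc88a, Adck1 and Necap2 (0.04 to 0.06). Ripk3 was closest to Plpbp, Mlycd and Klk1b24 (0.05 to 0.07), Casp9 to Rasgef1a, Phactr2 and Myo9b (0.06 to 0.07). For Casp6 they were Add1, Otulin and Gas2l3 (0.04 to 0.08), and Otulin encodes a deubiquitinase of the TNF receptor complex.

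Promoter sequence was available in RefSeq (GRCm38.p6) for 7 of the 8 listed genes, Zbp1 being the one without an entry. The 250 bases before the start site that the table gives are shown for Mlkl and Casp8, the largest rises with poly I:C among genes with an entry, and for Ripk3 and Casp9, which fell with both ligands. They lie at chr8:111338206-111338455 (minus strand), chr1:58802252-58802501 (plus strand), chr14:55788858-55789107 (minus strand) and chr4:141793362-141793611 (plus strand), and are written 5′ to 3′ along the gene. The start sites of Ripk3 and Casp9 are the outermost ones of these genes. Those of Mlkl and Casp8 lie 274 and 7269 bases inside the gene span given above, and the sequence before their outermost starts was not searched. Capitals mark matches, on either strand, to either of 2 motifs described after the sequences.
Mlkl: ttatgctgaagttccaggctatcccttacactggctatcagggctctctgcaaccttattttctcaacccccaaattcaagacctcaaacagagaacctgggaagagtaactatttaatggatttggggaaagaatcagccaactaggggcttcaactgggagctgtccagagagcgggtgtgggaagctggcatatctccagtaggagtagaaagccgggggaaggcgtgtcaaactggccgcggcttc
Casp8: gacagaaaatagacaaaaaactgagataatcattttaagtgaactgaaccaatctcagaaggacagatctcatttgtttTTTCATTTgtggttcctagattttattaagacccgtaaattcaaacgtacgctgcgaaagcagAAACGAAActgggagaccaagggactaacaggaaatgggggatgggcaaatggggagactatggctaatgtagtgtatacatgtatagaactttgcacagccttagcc
Ripk3: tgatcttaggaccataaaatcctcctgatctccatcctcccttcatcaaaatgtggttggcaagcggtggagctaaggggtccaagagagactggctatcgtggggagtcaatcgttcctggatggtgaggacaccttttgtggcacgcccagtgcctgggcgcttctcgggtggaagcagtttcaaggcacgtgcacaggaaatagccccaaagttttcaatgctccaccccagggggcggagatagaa
Casp9: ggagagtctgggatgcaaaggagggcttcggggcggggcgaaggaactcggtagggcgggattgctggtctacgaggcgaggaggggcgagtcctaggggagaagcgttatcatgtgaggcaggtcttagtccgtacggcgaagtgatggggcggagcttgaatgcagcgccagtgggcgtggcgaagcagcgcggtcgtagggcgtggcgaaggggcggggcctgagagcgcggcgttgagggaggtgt

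The motifs searched were AANNGAAA (a motif of interferon regulatory factors, contained in the longer interferon-stimulated response element) and TTCNNNGAA (the STAT motif GAS). Casp8 held 2 matches to AANNGAAA, ending 164 and 101 bases before the start site, and none to TTCNNNGAA. The windows of Mlkl, Ripk3, Casp9, Casp6 and Fadd held no match to either. Ripk1, which was not measured, has 2 windows in the table, and 1 of them held 2 matches to TTCNNNGAA, ending 100 and 3 bases before its start site. Among 32851 promoters of the same length, 21.3% held AANNGAAA and 7.02% TTCNNNGAA. The windows also differed in composition: the G and C content was 39.6% for Casp8, 50.8% for Mlkl, 54.0% for Ripk3 and 66.0% for Casp9, where the median of all promoters was 52.4%.

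Genes listed as partners of these members, not all of them in the necrosome or at death receptors, were mostly higher. The list also held Ifnar1, Ifnar2, Irf1, Irf9 and Stat2 of interferon signalling, and Adar and Eif2ak2, whose products act on double-stranded RNA. All of these rose with PAM, and all but Ifnar1 rose with poly I:C. All of these genes but Stat2 were named here after their values were seen. Of 39 measured partner genes 26 rose and 1 fell with poly I:C (66.7% and 2.56%, where 12.1% of all genes rose and 18.2% fell; median 0.46). With PAM 21 rose and 4 fell (53.8% and 10.3%, where 11.0% of all genes rose and 14.0% fell; median 0.37). The death ligand gene Tnfsf10, which encodes TRAIL, rose by 5.65 ± 0.14 with poly I:C (adjusted p = 7.97e-09), with a difference of -0.15 with PAM that did not pass. Stat2, a transcription factor of interferon signalling, rose by 3.16 with poly I:C and by 0.67 with PAM. Tnf, the ligand of the TNF receptor, rose by 2.20 with poly I:C and by 4.43 with PAM. The death receptor gene Fas rose by 1.86 with poly I:C and by 2.27 with PAM. Otulin, the 1 partner that fell with poly I:C, fell by 0.48, and with PAM it fell by 0.47, while Tnfrsf1a, a TNF receptor gene, rose by 0.27 with poly I:C and fell by 0.28 with PAM.

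Upstream of the kinases stand Tlr3 and its adaptor gene Ticam1 (TRIF), named here after their values were seen. Tlr3 rose by 2.46 with poly I:C, and its difference with PAM was -0.29 without passing (adjusted p = 0.0991). Ticam1 differed by 0.20 with poly I:C without passing (adjusted p = 0.0968) and fell by 0.28 with PAM (adjusted p = 0.0311). Cflar, which encodes the caspase-8 partner cFLIP and was also named after its values were seen, rose with both ligands, by 1.67 with poly I:C and by 1.96 with PAM, unlike Casp8, which rose with poly I:C and had the value of -0.20 with PAM.

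**Figure D3:**
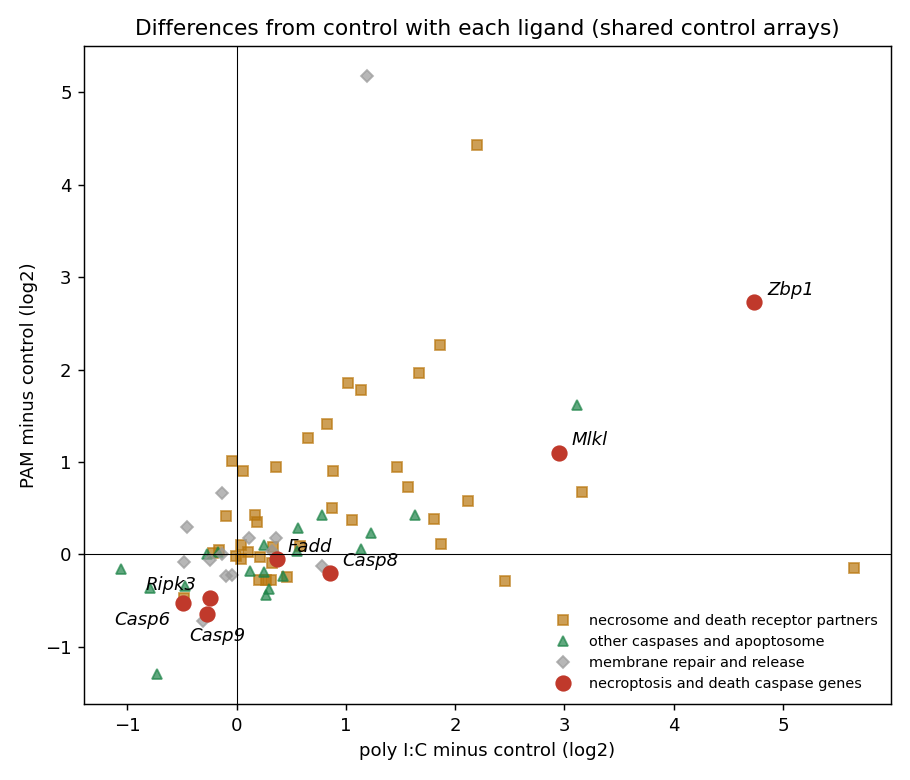
Log2 difference from control with poly I:C (horizontal axis) and with PAM (vertical axis) for the 7 measured genes and for genes of 3 related lists; each point is a gene, and both axes share the control arrays. Zbp1 and Mlkl lie in the upper right, Ripk3, Casp9 and Casp6 in the lower left, and Casp8 to the right and just under 0.

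The list of other caspases and the apoptosome, the caspase-9 activating complex, also held BCL2 family genes and caspase substrates. Its genes moved in both directions. Of 19 measured genes 12 rose and 5 fell with poly I:C (63.2% and 26.3%, against 12.1% and 18.2% of all genes; median 0.27). With PAM 5 rose and 6 fell (26.3% and 31.6%, against 11.0% and 14.0% of all genes; median within 0.01 of 0). The difference between these counts was not tested. The 5 genes of this list that fell with poly I:C included no caspase or apoptosome gene. Casp4 and Casp1, inflammatory caspases, rose by 3.12 and 1.63 with poly I:C and by 1.62 and 0.43 with PAM. Cycs, which encodes cytochrome c, rose by 0.78 with poly I:C and by 0.43 with PAM. Casp2, another initiator caspase, rose by 0.27 with poly I:C and fell by 0.44 with PAM. The survival gene Bcl2 fell by 1.06 with poly I:C, and its difference with PAM was -0.16 without passing. Bcl2l1, which encodes BCL-XL, fell by 0.73 with poly I:C and by 1.30 with PAM, and Parp1, a caspase substrate, fell by 0.79 with poly I:C and by 0.36 with PAM. Apaf1, the scaffold on which caspase-9 is activated, was named after its values were seen: it rose by 0.42 with poly I:C and fell by 0.24 with PAM (adjusted p = 0.0429), while Casp9 fell with both.

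Genes of membrane repair and of release from dying cells also moved in both directions. Of 13 measured genes 4 rose and 4 fell with poly I:C (30.8% each way, against 12.1% and 18.2% of all genes), and 3 rose and 3 fell with PAM (23.1% each way, against 11.0% and 14.0% of all genes). Chmp4b, an ESCRT-III subunit of membrane repair, rose by 0.78 with poly I:C and differed by -0.13 with PAM without passing. Il1a, an alarmin gene, rose by 1.19 with poly I:C and by 5.18 with PAM. Hmgb1, another alarmin, fell by 0.48 with poly I:C at the edge of the threshold (SE 0.16; adjusted p = 0.0497) and differed by -0.08 with PAM without passing. Flot2, a lipid raft protein gene, fell by 0.45 with poly I:C and rose by 0.29 with PAM. Flot1 rose by 0.66 with PAM and differed by -0.13 with poly I:C without passing. Anxa1 fell with both ligands, by 0.72 with PAM and by 0.31 with poly I:C. Chmp3 fell by 0.24 with PAM and differed by -0.1 with poly I:C without passing.

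**Figure D4:**
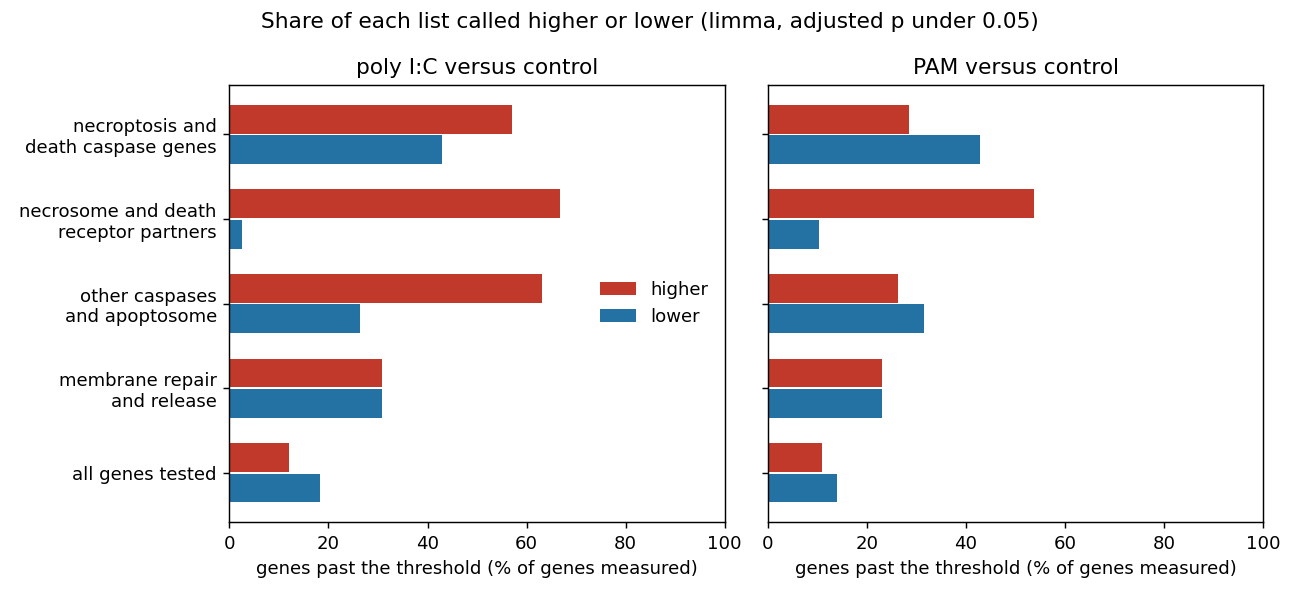
Percentage of measured genes past the threshold (horizontal axis, limma adjusted p under 0.05) as higher or lower than control, for the necroptosis and death caspase genes, 3 related lists and all genes tested, with poly I:C (left) and PAM (right). Partner genes, a list that also held interferon signalling genes, were higher in 66.7% with poly I:C and 53.8% with PAM, against 12.1% and 11.0% of all genes.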

How the data were processed

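Biotinylated cRNA made from total RNA was put on an Affymetrix array, per the labels' protocols. The deposited table held 28815 probes on 6 arrays as log values, used as log2; their log base, and how the authors summarized, corrected and normalized the probes, is not given in the sources used here. The deposited values were as after subtraction of each probe's median over the 6 arrays (largest remaining median 5e-07). Array medians lay between -0.0049 and 0.0072. Because the values hold no level, no dim probes were removed and no variance trend was used.

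Of the probes 21780 had 1 gene symbol in the platform annotation, 1605 several and 5430 none. Single-symbol probes were averaged per gene (19935 genes), and 21689 of them were found in RefSeq by Entrez identifier, with 0 symbols changed. A probe was counted at 8 or above where its values were whole multiples, within 0.15 of a step, of the single-precision step at that size. Lower values can also be such multiples, so the count can include probes with arrays below 8.

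One mean per group was fitted over all 6 arrays with limma 3.58.1 in R 4.3.3 (lmFit and eBayes; 3 residual and 5.68 prior degrees of freedom; median SE of a difference 0.07). Precision is limited by the number of arrays. The script was tested on simulated data. The members and gene lists were chosen with earlier results of these data known. Every member is named; from each list the 2 largest rises and 2 largest falls per ligand are named, and for each member the 3 genes at the smallest Euclidean distance, with other names marked in the text. Alternatives were array centring, a variance trend, robust variance, a fit on the 4 arrays of a comparison, a block for the replicate number, each array left out, a 2-fold minimum, single probes, and probes with several symbols. Python 3.11.15 with pandas 2.3.3, scipy 1.17.1 and matplotlib 3.10.9 was used for the rest.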

Additional observations from a re-analysis of the deposited data

How the results depend on the processing

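Of 231 member values under alternatives (7 genes, 3 comparisons), 223 kept their direction and their side of the threshold; leaving out an array of the group not compared repeats the fit on 4 arrays and is not counted. Calls were lost 7 times, each on leaving out 1 array: 6 for Ripk3 and 1 for Casp9, all with values given above. The Casp6 difference between poly I:C and PAM, which never passed, ranged from -0.01 (without PAM replicate 1) to 0.08 on leaving out 1 array. With at least a 2-fold difference required, 2 members passed with poly I:C, 2 with PAM and 3 between the ligands. Genes past that rule numbered 960 with poly I:C (552 higher, 408 lower), 838 with PAM (452 and 386), 991 between the ligands (517 and 474) and 14 for the opposite response, fewer by construction. Leaving out 1 array gave 1828 to 2839 genes lower with PAM, against 2781, the lowest without PAM replicate 1; the cause was not tested. Opposite responses then numbered 184 to 214, against 270.

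Replicate numbers are shared in the titles, but deviations of same-numbered arrays correlated at -0.0727, 0.155 and -0.0101 between groups, so the numbers were not taken to pair samples. With the replicate number as a block 6026 genes passed with poly I:C, 4918 with PAM and 5698 between the ligands, 268 had the opposite response, and no member changed its call. Signal over background is unknown, and 1 probe per gene gives no check between probes.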

Other observations

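Regulators of the TNF receptor complex that set whether RIPK1 signals for survival or death were examined after their values had been seen. They were picked from the 39 measured partner genes. Of those, 12 did not pass with poly I:C and 14 did not with PAM, where 30.4% and 25.0% of all genes passed. Tab2, Tab3 and Map3k7 of that list passed with neither ligand. Rnf31, the catalytic subunit of the linear ubiquitin ligase, rose by 1.87 ± 0.07 with poly I:C (adjusted p = 6.06e-08, limma) and differed by 0.11 ± 0.07 with PAM without passing. Its partners Sharpin and Rbck1 rose by 0.32 and 0.46 with poly I:C, whereas with PAM Sharpin differed by -0.10 without passing and Rbck1 fell by 0.25. Otulin, which removes the same chains, fell with both ligands. Birc3, which encodes the ubiquitin ligase cIAP2, and Tnfaip3, which encodes A20, rose with both ligands, Birc3 by 1.14 with poly I:C and 1.78 with PAM, and Tnfaip3 by 1.02 with poly I:C and 1.85 with PAM. Cyld, a deubiquitinase that favours death signalling, rose by 0.58 with poly I:C and differed by 0.09 with PAM without passing.

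Adar and Eif2ak2, whose products act on double-stranded RNA, were also picked after their values had been seen. Adar, the RNA-editing enzyme that restrains ZBP1 in mice, rose by 1.81 with poly I:C and by 0.38 with PAM, and Eif2ak2, the kinase PKR, rose by 2.12 with poly I:C and by 0.58 with PAM.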
